A study of Mus musculus with 6 samples.

Results

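Kcnj3, Chrm3, Prokr2, Fam155a, Vsnl1, Robo2 and Bcan are 7 genes best known from excitable and neural tissue, taken by their symbols from the 10580 rows of the authors' table on mouse Leydig cells. The table holds only genes with an adjusted p below 0.05 in the authors' comparison of the stages, so that these 7 are in it was fixed by how they were chosen. For any other gene, listing is not a measure of expression, and a gene outside the table may be expressed. As a group they had been selected on the difference between Leydig cells of the fetal testis (FLCs) and of the adult testis (ALCs) in the authors' own comparison. Its columns are not used here, so neither the size nor the direction of that difference is given, and whether the 7 genes belong to FLCs was not tested. What follows is their level over both stages together, their place among related genes, their loci and the sequence at their starts.

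Leydig cells, the androgen-producing cells of the testis interstitium, were sorted from mice carrying GFP under the control of Nr5a1, a regulator of steroidogenic cells that Sertoli cells also express. FLCs came from E18.5 male embryos of CD-1 females and heterozygous Tg(Nr5a1-GFP) males, and ALCs from P100 heterozygous Tg(Nr5a1-GFP) males, with 3 libraries per stage. Both stages thus carried the transgene, and the gate took the cells with the strongest fluorescence, leaving out doublets and dead cells. Fetal testes were dissociated with trypsin, whereas adult testes were first digested with collagenase, hyaluronidase and DNase and their tubules were left to settle, so stage and dissociation cannot be told apart. FLCs of several sorts were pooled for RNA. ALCs also came from several independent purifications, and how these were divided over the libraries was not checked.

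The value of each gene is the authors' mean over all 6 libraries of read counts divided by DESeq2 size factors, in short normalized counts. Single libraries were not analysed here, which leaves no SD, interval or test, and no difference between genes can be set against the spread between replicates. These means summed to 22228751 over the listed genes, and they do not show whether any pair of genes was high in the same stage or cells. The Leydig cell markers had means from 87502 normalized counts for Star to 283675 for Cyp17a1. Among neuron markers, Tubb3 had 607 normalized counts, Syn1 258 and Rbfox3 32.0, and the other neuron markers and those of Schwann cells were not analysed here. The listed markers of Sertoli, germ, endothelial and immune cells had means from 11.6 normalized counts for Cxcl2 to 982 for Csf1r. That range takes in 5 of the 7 genes, but its upper end rests on Csf1r, and the next marker, Ddx4, had 184. Of the 7 genes, only Vsnl1 had a lower mean than Ddx4. The part of these cells in the levels below was not tested. Nor was that of neurons.

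The 7 proteins fall into 3 kinds. Kcnj3 encodes a subunit of the potassium channels that the beta-gamma subunits of G proteins open, Fam155a an auxiliary subunit of the NALCN sodium leak channel, and Vsnl1 visinin-like protein, a neuronal calcium sensor. Chrm3 and Prokr2 encode receptors for acetylcholine and for prokineticins, both of which act mainly through Gq and the release of stored calcium. Robo2 encodes a receptor for the Slit guidance proteins, and Bcan the proteoglycan brevican of the matrix around neurons.

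RefSeq windows from 250 bases before to 50 bases after a gene start, on GRCm38.p6, were used for 6 of the 7 genes, and that of Fam155a was not used here. The windows that held a GC box, a common element of promoters without a TATA box, are shown 5′ to 3′ along the gene so that its place can be seen. Capitals mark the GC box (GGGCGG) and the CCAAT box (CCAAT), read on either strand. The window of Kcnj3 lies at chr2:55435720-55436019 on the plus strand. On the minus strand, that of Prokr2 lies at chr2:132385398-132385697, that of Bcan at chr3:88000307-88000606 and the Vsnl1 window shown at chr12:11436529-11436828.
Kcnj3: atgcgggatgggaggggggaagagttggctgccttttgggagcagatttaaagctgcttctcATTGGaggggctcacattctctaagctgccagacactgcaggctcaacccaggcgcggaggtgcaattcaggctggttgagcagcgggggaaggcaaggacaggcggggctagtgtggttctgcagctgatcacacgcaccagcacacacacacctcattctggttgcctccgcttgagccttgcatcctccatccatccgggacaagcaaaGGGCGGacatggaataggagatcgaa
Prokr2: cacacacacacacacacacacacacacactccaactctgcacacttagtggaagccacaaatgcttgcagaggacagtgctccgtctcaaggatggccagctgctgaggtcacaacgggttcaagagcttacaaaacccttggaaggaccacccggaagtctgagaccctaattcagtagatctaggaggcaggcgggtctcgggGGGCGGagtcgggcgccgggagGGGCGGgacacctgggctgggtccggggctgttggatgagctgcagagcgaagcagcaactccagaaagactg
Bcan: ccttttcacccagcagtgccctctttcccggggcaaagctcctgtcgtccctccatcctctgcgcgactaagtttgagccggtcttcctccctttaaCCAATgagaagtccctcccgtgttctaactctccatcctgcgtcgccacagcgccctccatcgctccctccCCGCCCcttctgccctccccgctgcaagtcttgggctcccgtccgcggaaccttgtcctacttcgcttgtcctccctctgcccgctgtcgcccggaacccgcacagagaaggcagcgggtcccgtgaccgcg
Vsnl1: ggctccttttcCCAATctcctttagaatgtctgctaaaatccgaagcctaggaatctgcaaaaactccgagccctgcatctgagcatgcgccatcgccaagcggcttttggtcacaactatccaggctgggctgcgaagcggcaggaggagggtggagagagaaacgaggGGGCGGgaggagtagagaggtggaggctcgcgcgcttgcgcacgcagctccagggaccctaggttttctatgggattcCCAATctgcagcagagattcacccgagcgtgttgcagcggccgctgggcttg

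The 6 genes had 9 windows in all, of which 4 held a GC box (44.4%), against 35.7% of all 32851 promoter windows. The CCAAT box was found in 4 of the 9, of Kcnj3, Bcan and both starts of Vsnl1, against 37.4% of all windows. In Prokr2 a pair of GC boxes began 45 and 23 bases before the start. In Vsnl1 a CCAAT box began 2 bases before it. The windows of Chrm3 and Robo2 held neither motif, and a second Vsnl1 window, at chr12:11435602-11435901, held a CCAAT box alone.

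No member window held the NR5A1 core AAGGTCA, which 4.72% of all windows hold, or the TATA box TATAAA (13.6%). None held the core of the cyclic AMP response element, TGACG (20.8%). The letters TTCAGCAC (1.17%) and GGACAGC (6.56%), taken from the left and right parts of RE1, the site through which REST silences neural genes, were absent too. The NR5A1 core and the RE1 letters are so rare over all windows that their absence from 9 carries little information. For the TATA box and the cyclic AMP core, 9 windows of 6 genes are also too few to read an absence as a difference. These matches describe 9 short windows and say nothing of binding. Only exact letters were searched, so the absence of the RE1 letters does not exclude a site close to RE1. The Robo2 window at chr16:75447244-75447543 holds most letters of both RE1 parts, in order and close together. Whether REST acts there was not tested. Over the 9 windows, G and C made up from 44.3% in the second Vsnl1 window to 65.0% in the Robo2 window at the GENCODE start, with 7 of the 9 above the median of 52.7% over all windows. CpG dinucleotides ranged from 5 in a Robo2 window to 24 in the Bcan window, against a median of 7 over all windows.

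Across both stages, Bcan had the highest mean of the 7 genes and Vsnl1 the lowest. Bcan had a mean of 2181 normalized counts, above that of 77.8% of the listed genes. Robo2 followed with 1740 (above 72.5%). Kcnj3 and Chrm3 lay close to the median of 679 normalized counts over all listed genes, with 796 and 733.

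Fam155a had 377 normalized counts, Prokr2 282 and Vsnl1 168, so all 3 lay below that median but above the lower quartile of 119. The median over the 7 genes was 733 normalized counts, and together they made up 0.0282% of the sum over all listed genes. Because 3 of the 6 libraries belong to each stage, the mean of either stage can be at most 2 times the mean over both. This sets a ceiling of 4361 normalized counts for Bcan in either stage, 3480 for Robo2, 1593 for Kcnj3, 1466 for Chrm3, 754 for Fam155a, 565 for Prokr2 and 337 for Vsnl1. By counts without length, neither Vsnl1 nor Prokr2 could thus have reached 679 in either stage. That median is of means over both stages, not of means within 1 stage. Per kilobase of exons, the scale used below, Vsnl1 had 0.581 times the median over both stages and Prokr2 0.240 times. On that scale the ceiling of 2 times keeps Prokr2 below the median but not Vsnl1.

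**Figure D1:**
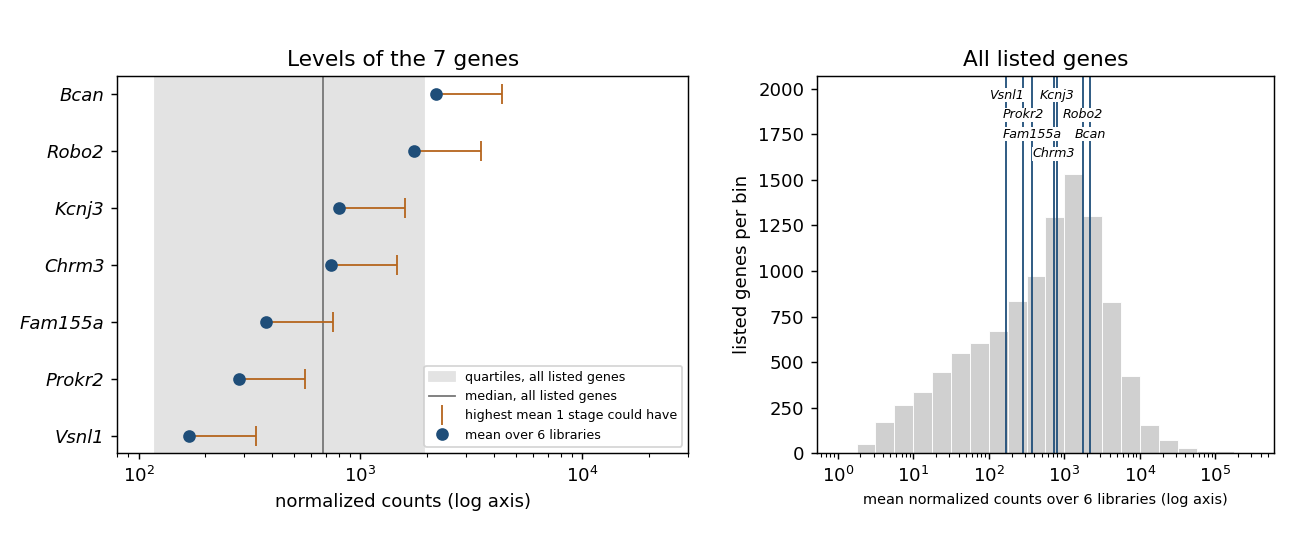
Left, mean normalized counts over 6 libraries of the 7 genes (points, log axis) with the highest mean that either stage could have (bars, 2 times the point), beside the median and quartiles of all listed genes; no error is drawn because values per library were not used. Right, the number of listed genes per bin of mean normalized counts, with the 7 genes as lines from 168 for Vsnl1 to 2181 for Bcan.

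Counts grow with transcript length, so levels of different genes were compared per kilobase of exons, the union of all exons in GENCODE vM21. The authors counted reads on a different Gencode release, so these lengths may differ from those of the exons counted. On that scale Bcan stood further from the others, with 537 normalized counts per kilobase, above 79.8% of 10205 listed genes with a known length. Kcnj3 came next with 153 per kilobase, beside a median of 148 over those genes. Chrm3 had 117 per kilobase, Robo2 102, Vsnl1 86.1, Fam155a 57.7 and Prokr2 35.7.

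Robo2 moved most between the scales, from above 72.5% of listed genes to above 42.5%, since its exons cover 16983 bases against a median of 4270. Vsnl1 moved the other way, from 28.7% to 39.3%, with exons of 1956 bases. Bcan and Kcnj3 were above the median per kilobase and the other 5 genes below it. Without replicates, the order of neighbours such as Chrm3 and Robo2 cannot be tested.

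**Figure D2:**
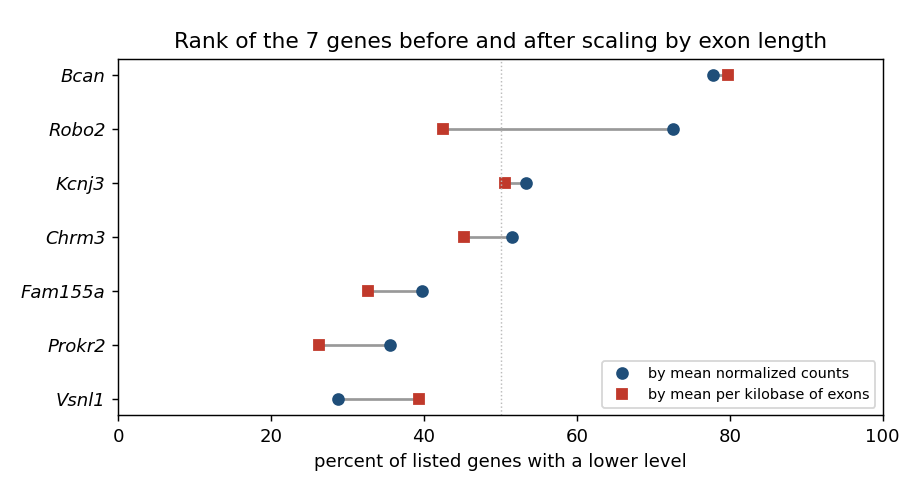
Percent of listed genes with a lower level than each of the 7 genes, by mean normalized counts (circles) and by mean per kilobase of exons (squares). Robo2 drops from 72.5% to 42.5% and Vsnl1 rises from 28.7% to 39.3%, whereas Bcan stays near 80% (77.8% and 79.8%).

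Among the channels, Kcnj3 was the highest of the 7 listed inward rectifiers, out of 15 looked up. It had 153 normalized counts per kilobase, and the next, Kcnj8, a subunit of ATP-sensitive channels, had 21.5, a ratio of 7.09 (14.5 without length). Kcnj3 protein usually needs a partner subunit to reach the membrane. Of its partners, Kcnj9 had 3.97 per kilobase and Kcnj6 0.563, and Kcnj5 was not analysed here. The G protein subunits Gnai2 and Gnai3, whose receptors release the beta-gamma subunits that open such channels, had 1746 and 1381 per kilobase. Because the means pool both stages, whether Kcnj3 and these genes were high in the same stage cannot be told.

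For the sodium leak channel complex, Fam155a, at 57.7 per kilobase, was the member with a value. The pore gene Nalcn, its partners Unc79 and Unc80, and Fam155b were not analysed here. Fam155a protein is not known to conduct on its own.

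Among the receptors, Chrm3 stood far above the other listed muscarinic genes. It had 117 normalized counts per kilobase, against 2.36 for Chrm2 and 2.02 for Chrm1, which is 49.7 times the level of Chrm2. Chrm4 and Chrm5 were not analysed here. Prokr2 had 35.7 per kilobase, and Prok2, which encodes a ligand of the receptor, 6.56. The other ligand and receptor, Prok1 and Prokr1, were not analysed here.

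Of the Gq route that both receptors use, Gna11 had 1031 normalized counts per kilobase and Gnaq 584. Of the phospholipases that Gq activates, Plcb2 had 117 and Plcb1 36.2, and Plcb3 and Plcb4 were not analysed here. Itpr1, the calcium release channel of the endoplasmic reticulum, had 561, above Itpr3 with 169 and Itpr2 with 101. Whether these genes and the receptors were high in the same stage or cells cannot be told from means over both stages.

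Among the 6 listed of 13 neuronal calcium sensor genes, Ncs1 was the highest with 115 normalized counts per kilobase, 1.34 times the 86.1 of Vsnl1. Kcnip4, a modulator of voltage-gated potassium channels, had 62.8, Ncald 28.6, Kcnip3 13.6 and Guca1b 9.26. By mean normalized counts, without length, Vsnl1 came after Ncs1 (537), Ncald (245) and Kcnip4 (228), so its place depends on the scale.

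Among guidance genes, Robo2 lay below its paralog Robo1. Per kilobase Robo1 had 152, Robo2 102 and Slit2 89.5 normalized counts, while Robo4, the endothelial receptor, had 15.9 and Robo3 1.07. Its order against its ligand Slit2 depends on the scale, since without length Slit2 had 2276 normalized counts and Robo2 1740. The cells that made ligand and receptors cannot be told apart here. Slit1 and Slit3 were not analysed here.

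Of the lecticans, the proteoglycans that bind hyaluronan, Bcan was the highest. Its 537 normalized counts per kilobase were 4.98 times those of Acan (108) and 37.3 times those of Vcan (14.4). Without length these ratios were 2.71 and 10.5. Ncan, like Bcan mainly a gene of the nervous system, had 1.52. Hapln1, a link protein that ties lecticans to hyaluronan, had 74.5 per kilobase, Hapln3 had 7.68, and Tnr, a tenascin that binds lecticans, had 1.56.

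**Figure D3:**
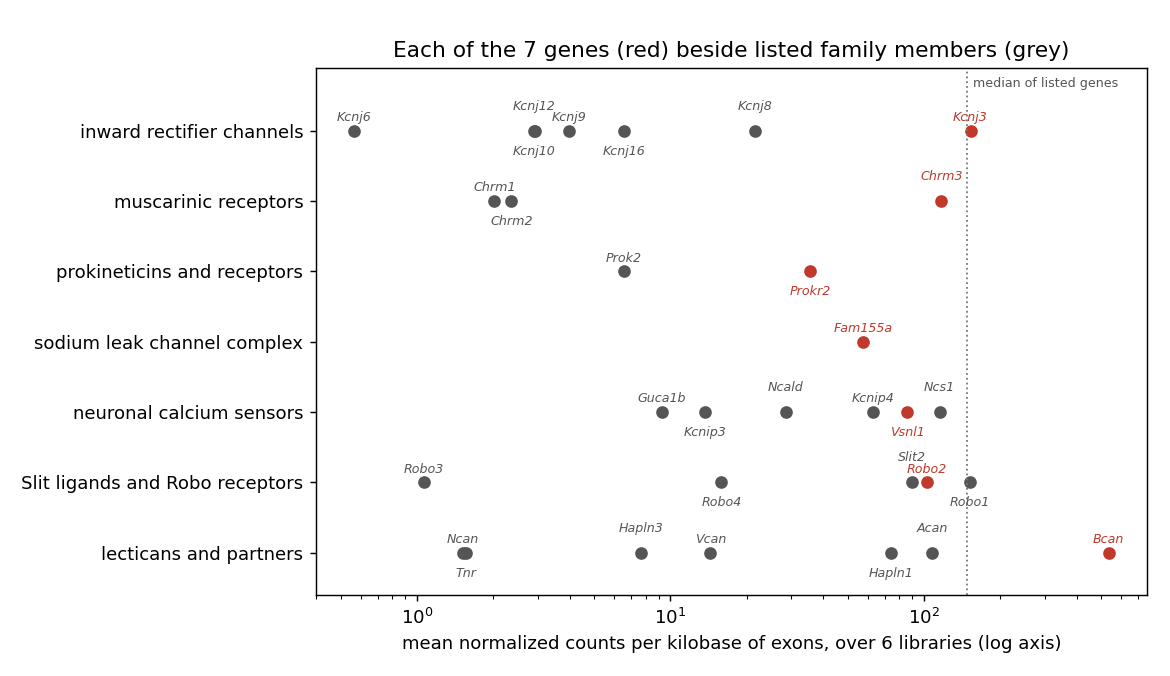
Mean normalized counts per kilobase of exons over 6 libraries (log axis) for the listed genes of 7 families, with the 7 genes in red and other family members in grey. Kcnj3, Chrm3 and Bcan are the highest listed genes of their families at 153, 117 and 537. Vsnl1 and Robo2 are the second at 86.1 and 102. Prokr2, at 35.7, stands above the ligand gene Prok2, the only other listed one, and Fam155a is alone at 57.7. The listing and the choice of the 7 genes both rest on the stage comparison, so these places are not independent of it.

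The loci of the 7 genes differ widely in size, by GENCODE vM21 on GRCm38. Fam155a spans 565 kb of chromosome 8 (9205902 to 9771161), Robo2 520.0 kb of chromosome 16 (73891839 to 74411825) and Chrm3 485 kb of chromosome 13 (9875486 to 10360847). Kcnj3 spans 162 kb of chromosome 2 (55435970 to 55598145), Vsnl1 111 kb of chromosome 12 (11325242 to 11436613), and Prokr2 47.7 kb of chromosome 2 (132337733 to 132385447). Only Bcan, with 12.7 kb of chromosome 3 (87987531 to 88000230), is shorter than the median listed gene of 24.3 kb. Exons make up 32.0% of the Bcan locus but 1.16% of Fam155a and 1.29% of Chrm3.

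Overlapping genes touch the exons of Kcnj3 and Fam155a. The antisense gene Gm26794 shares 1621 of the 5215 exonic bases of Kcnj3. Whether the authors' counting used strand is not given in the sources used here, so the Kcnj3 level is uncertain to that extent. Gm47312 shares 153 exonic bases with Fam155a on the same strand. Whether the Gencode release used for counting held Gm26794 or Gm47312 was not checked. The exons of the other 5 genes overlap no exon of another annotated gene. RefSeq also places starts of Robo2 far upstream of the GENCODE locus, at windows chr16:75447244-75447543 and chr16:75092721-75093020, which the exon length used here does not include.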

How the data were processed

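RNA of sorted Leydig cells was sequenced in 6 libraries, 3 per stage. As the methods describe, the authors demultiplexed reads with Casava (v1.8.2, also in the submitters' processing notes), mapped them with GemTools to GRCm38, counted them per Gencode gene with an in-house pipeline and ran DESeq2. The methods name a stranded kit with ribosomal RNA removal, the results text poly(A)+ RNA. The deposited signal used here averages the size-factor-scaled counts of the 6 libraries. The other deposited columns hold the authors' comparison of the stages (log2 fold change, its standard error, a test statistic, p-values) and are not used, apart from reading that 0 listed genes have an adjusted p of 0.05 or more. The planned test between stages needed counts per library, which were not used here, so the comparison of FLCs and ALCs is not made. A sheet naming the libraries holds no values.

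Percentiles are shares of listed genes with a lower mean, so genes outside the table do not enter. Symbols were matched to GENCODE vM21 (10205 genes, 96.5%). Motifs were searched on both strands of RefSeq windows. Functions were tested on simulated data. Python 3.11.15 with pandas 2.3.3 and numpy 2.4.6 was used. All 7 genes and the listed members of fixed families were named. The interstitial progenitor marker list is not reported here. Members and lists were chosen with earlier results of these data known. Alternatives were a floor of 10 normalized counts, protein-coding genes alone, and exonic or coding length.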

Additional observations from a re-analysis of the deposited data

How the results depend on the processing

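The median of the 7 genes' percentiles was 51.5 among all listed genes, 49.2 among those with at least 10 normalized counts, 51.1 among protein-coding genes and 42.5 per exonic length. The shift of each gene's percentile ran from -3.45 to -1.07 points under the floor and from -0.441 to -0.281 among protein-coding genes. Dividing by coding in place of exonic length moved Bcan from 79.8 to 64.4 and Prokr2 from 26.3 to 37.8. No paired analysis was possible because the result comes from no test, and no library could be left out. DESeq2 scaling, a count filter, left-out libraries and a replicate block were not run, since counts per library were not used. Depth per library is unknown.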
